A study of Mus musculus with 1824 samples.

Results

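Extraembryonic mesoderm and allantois cells were picked out of single-cell RNA-seq profiles of mouse embryos. The cells were chosen by 5 genes, *Hand1*, *Bmp4*, *Foxf1*, *Tbx20* and *Tbx4*, measured in CPM (counts of a gene scaled to the total of the cell). A cell was a member when it had at least 100000 reads, at least 3 of these genes at 20 CPM or more, and fewer than 3 of the endothelial genes *Cdh5*, *Pecam1*, *Tie1*, *Tek* and *Esam* at that level. Of 1824 cells in the table, 1649 had enough reads, and 250 of these (15.2%, exact 95% interval 13.5 to 16.98%) were members. The levels of these 10 genes are the basis of the choice and not a result.

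All cells came from chimeric embryos made with *Tet* triple knockout (TKO) embryonic stem cells, collected at embryonic day 7.5 (E7.5) or 8.5 (E8.5), with a CD1 strain label. Per the study's methods, TKO cells carrying H2B-tdTomato under a CAG promoter were injected into C57BL/6J blastocysts, and CD1 females served as recipients. The methods describe pooling of chimeric embryos, while 4 E7.5 plates each name an embryo in their labels. Cells were sorted into 96-well plates. The methods name stains for KDR and CD41 without a stage. A figure of the study describes this sort at E8.5, while its text names populations isolated at both stages. The labels of single cells give neither genotype nor sort gate, so TKO and host cells cannot be told apart here. The E7.5 cells filled 11 plates, of which 4 name an embryo, and the E8.5 cells filled 8 plates that name no animal. Plates were therefore used as technical units, the spread over plates is given in place of a replicate error, and no comparison carries a test. Stage cannot be told apart from the plates and sorts of each stage.

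Extraembryonic mesoderm leaves the posterior primitive streak and lines the amnion, chorion and yolk sac. It also forms the allantois, the bud that becomes the vessels of the umbilical cord. It is known as a source of BMP4, and blood and vessel progenitors of the yolk sac arise within it. *Hand1* encodes a basic helix-loop-helix factor, *Foxf1* a forkhead factor known as a target of Hedgehog signalling, and *Tbx20* and *Tbx4* encode T-box factors, *Tbx4* being a marker of the allantois.

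Members were found at both stages but on few E8.5 plates. They made up 18.9% of E7.5 cells (exact interval 16.5 to 21.6%) and 9.96% of E8.5 cells (7.83 to 12.4%, 69 members). The 4 plates naming an embryo held 22 of 92 cells (embryo 1, 23.9%), 21 of 94 (embryo 2, 22.3%), 17 of 91 (embryo 4, 18.7%) and 23 of 88 (embryo 5, 26.1%), and their intervals overlapped. The other E7.5 plates ranged from 1 of 93 cells on lane plate 1 to 30 of 84 on lane plate 3. At E8.5, plates 4 and 8 held 24 and 30 members, plate 7 held 8, plates 3 and 6 held 4 and 3, and plates 1, 2 and 5 held 0. A count of 0 among the 77 cells of plate 5 allows a share of up to 3.90% by a limit of 3 cells, and of up to 4.68% by the exact interval. Intervals and limits cover counting error only. The part of the sorts in these shares was not tested. Members had a median depth of 763057 reads (E7.5) and 492200 reads (E8.5). After thinning to equal depth, at 100000 reads a cell, the median member had 7268 and 6752 detected genes, and the median other cell 6947 and 6384. No member had values identical to another.

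**Figure D1:**
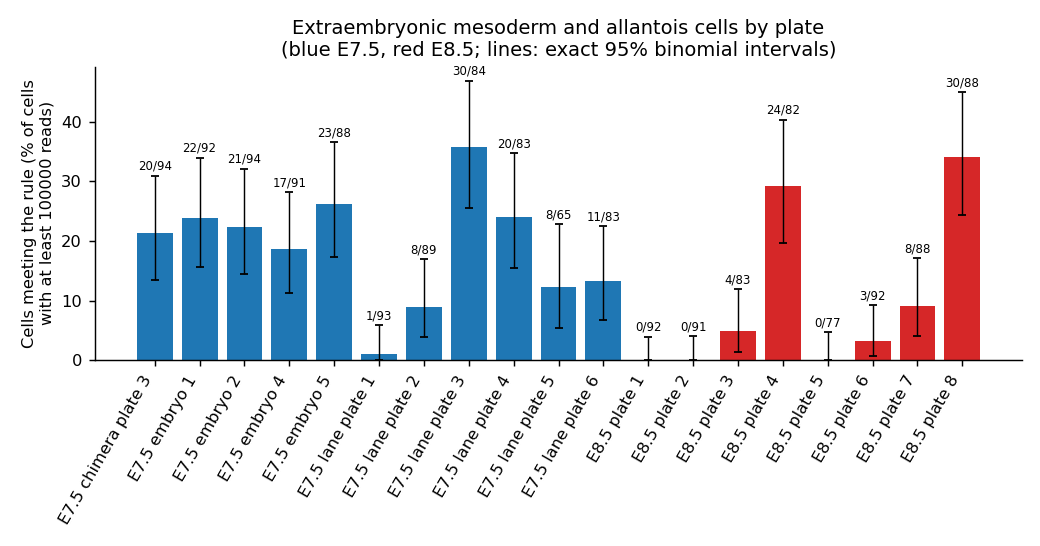
Share of cells meeting the marker rule on each of the 19 plates, in percent of cells with at least 100000 reads. Numbers over the bars are members and cells, and lines are exact 95% binomial intervals. E8.5 members sit mainly on plates 4 and 8, whereas 10 of the 11 E7.5 plates hold at least 8 members.

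Most members carried the same core of markers, with *Tbx4* in a minority. *Hand1* reached 20 CPM in 92.4% of members, *Bmp4* in 90.8%, *Tbx20* in 86%, *Foxf1* in 76.8% and *Tbx4* in 16% (40 cells). The combination of *Hand1*, *Bmp4*, *Foxf1* and *Tbx20* was the most frequent (42.4%), followed by *Hand1*, *Bmp4* and *Tbx20* (46 members), and all 5 genes were found in 17. *Tbx4* was at threshold in 27 of 69 E8.5 members and in 13 E7.5 members (7.18%). The third-highest of the 5 genes in a cell stood in members between 20.3 and 482.8 CPM. In the cells just outside, with 2 of the genes at threshold, it stood at 19.7 CPM or less. A further 10 cells with 3 or more of the genes were left out for their endothelial markers.

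The label was checked against 10 other marker lists of 5 genes each, a cell being called marked where at least 3 of them reached 20 CPM. No member was marked for paraxial mesoderm or blood progenitors, 1 was marked for the erythroid class, 2 each for visceral endoderm, surface ectoderm and primordial germ cells, 4 for cardiac and pharyngeal mesoderm and 7 for epiblast. The large overlaps were with nascent mesoderm (78 members, 77 of them at E7.5) and with extraembryonic ectoderm (18 members, all at E7.5). Members marked for none of these classes numbered 84 at E7.5 and 62 at E8.5. No list was for lateral plate mesoderm or intraembryonic mesenchyme, so this check cannot tell members from such cells.

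The 18 members marked for extraembryonic ectoderm, the trophoblast tissue next to this mesoderm, went against the label. They came from embryo 4 (8 cells), embryo 5 (8) and lane plate 6 (2). Each had *Hand1*, *Bmp4* and *Tbx20* at threshold, but 0 of the 18 had *Foxf1*. The epithelial genes *Cdh1* (E-cadherin), *Cldn6* (a claudin of tight junctions) and *Epcam* reached 20 CPM in 18 of 18, and the mesenchymal intermediate filament gene *Vim* in 0. *Cdh1* stood at 365.9 CPM in their summed reads, at 1.56 CPM in the 84 unmarked E7.5 members and at 447.2 CPM in the 81 extraembryonic ectoderm-marked cells that were not members. *Dnmt3l*, a cofactor of de novo DNA methylation, stood at 128.6, 0.797 and 145.6 CPM in the same order. Of those 81 cells, 75 had at least 1 of the 5 rule genes at threshold and 54 had 2. Median depth was 558390 reads in the 18 cells and 706320 in the unmarked E7.5 members. These cells are called extraembryonic ectoderm-marked members. The counts of members and of genes called between members and other cells and between the stages moved by less than 1.5 times without them.

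The 77 nascent mesoderm-marked members at E7.5 formed the other large subset, found on each of the 10 E7.5 plates with at least 5 members. The rule gene *Foxf1* reached 20 CPM in 74.03% of them and in 86.9% of the 84 unmarked members, and the VEGF receptor gene *Kdr* in 84.4% and 82.1%. Genes outside the marker lists also differed in level. *Tdgf1*, which encodes the Nodal co-receptor Cripto, stood at 453.5 CPM in the nascent mesoderm-marked and 17.9 CPM in the unmarked members. *Fgf8*, a ligand of the streak, stood at 84.99 and 2.81 CPM, and *Fn1*, the matrix protein fibronectin, at 1582 and 818.5 CPM. Levels on the other side were those of *Spin2c* (94.7 and 561.7 CPM), the keratin genes *Krt8* (315.8 and 1090) and *Krt18* (189.2 and 686.3), the imprinted gene *Mest* (744.1 and 2291), the proteoglycan gene *Vcan* (102.3 and 327.7) and smooth muscle actin, *Acta2* (6.95 and 107.9). The subsets were chosen on measured markers, so these values are a description.

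**Figure D2:**
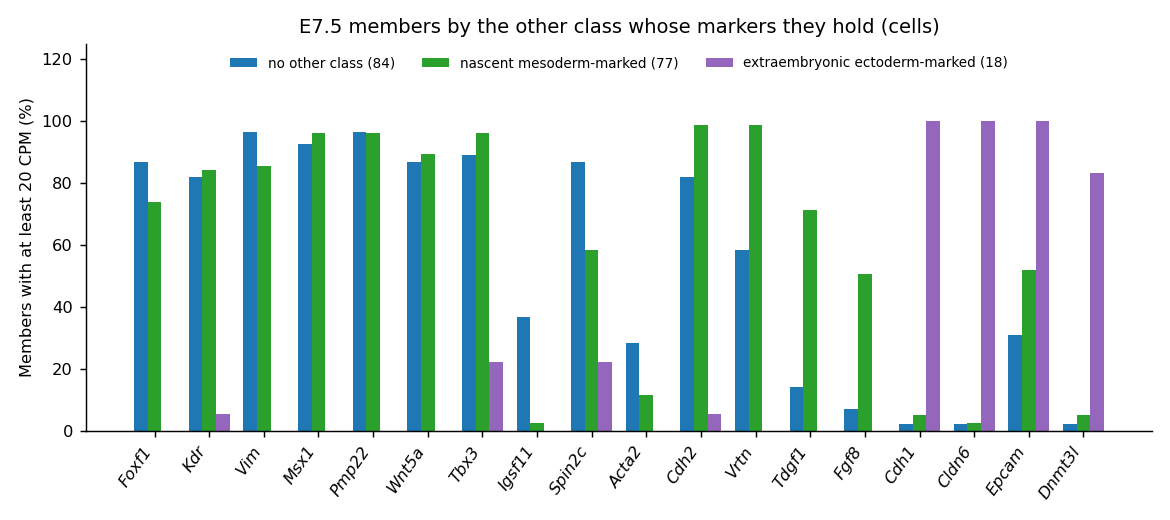
Percent of E7.5 members with at least 20 CPM of each gene, for members marked for no other class (blue, 84 cells), for nascent mesoderm (green, 77) and for extraembryonic ectoderm (purple, 18). The extraembryonic ectoderm-marked members have *Cdh1*, *Cldn6* and *Epcam* in every cell and *Foxf1*, *Vim* and *Msx1* in none, and *Tdgf1* and *Fgf8* are more frequent in the nascent mesoderm-marked members than in the other subsets.

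Members were then set against the 1399 other cells. Reads were summed over cells, scaled to CPM, and compared as the log2 ratio of CPM with 1 CPM added, which understates the difference of low genes. A gene was called higher or lower at a ratio of at least 2-fold (log2 of 1) and 10 CPM on either side. Among 9807 genes with 10 CPM, 4.98% were higher and 7.27% lower in members, with a median log2 ratio of 0.03. The cells were selected on 10 of these genes, and nothing is read from the counts. These shares over all genes are the background for each count of a gene list against other cells below.

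In all, 86 genes with 10 CPM, rule genes included, were higher than in the other cells of the same plate on all 13 plates with at least 5 members. Those with the largest ratios, rule genes aside, were *Col1a1* (type I collagen, log2 ratio 4.44), *Spin2c* (4.11), *Fendrr* (3.42), *Svep1* (3.21), the T-box gene *Tbx3* (3.08), *Rgs5* (3.06), the myelin and membrane gene *Pmp22* (2.99) and the zinc finger gene *Snai2* (2.97). *Col1a1* varied widely, from 0.735 to 265.7 CPM on the E7.5 plates, with embryos 4 and 1 lowest, and reached 20 CPM in 29 E7.5 and 36 E8.5 members. *Spin2c* stood at 98.9 to 561.1 CPM on the E7.5 plates and at 374.6, 153.98 and 289.1 CPM on E8.5 plates 4, 7 and 8, against 17.3 CPM in the other cells. *Tbx3* stood at 149.9 to 370.5 CPM on the E7.5 plates, against 28.9 CPM. Among the genes with the smallest ratios were *Nfe2*, an erythroid factor, at 0.0270 CPM in members and 62.2 CPM in other cells, and *Mfng*, a modifier of Notch, at 0.0360 and 22.9 CPM. Of the other cells, 26.7% were endothelial-marked and 20.4% blood progenitor-marked.

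**Figure D3:**
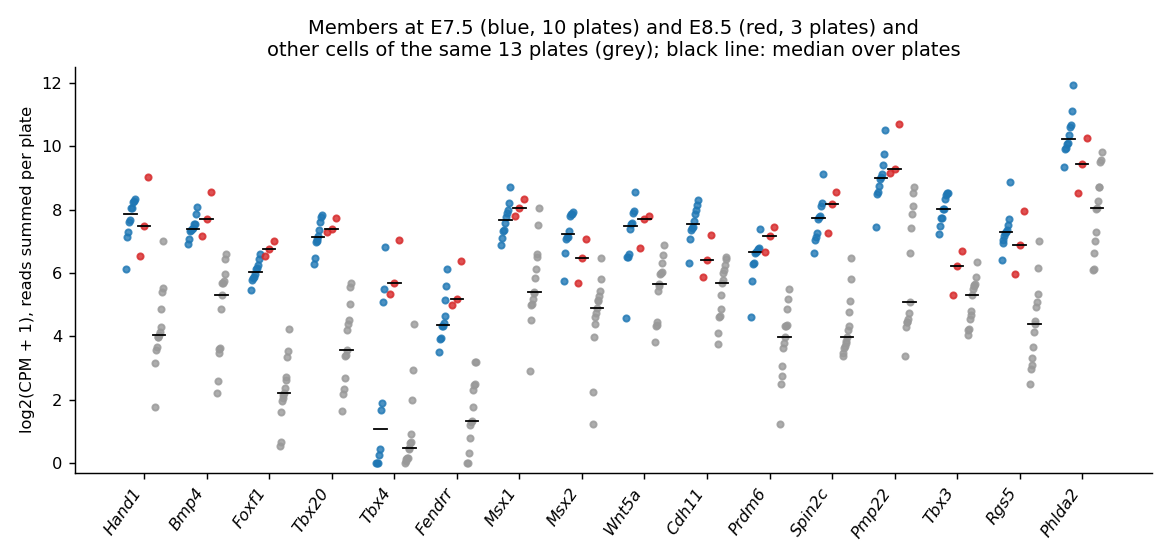
Levels as log2(CPM + 1) of reads summed per plate, for members at E7.5 (blue, 10 plates), members at E8.5 (red, 3 plates) and the other cells of the same 13 plates (grey). Black lines are medians over plates. The first 5 genes chose the cells; *Fendrr*, *Msx1*, *Wnt5a*, *Prdm6* and *Spin2c* are higher in members than in the other cells of the same plate on all 13 plates.

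*Fendrr*, a long noncoding RNA gene (chr8:121054882-121083110, GRCm38, minus strand), lies head to head with *Foxf1* (chr8:121084386-121088144, plus strand), and the annotated genes do not overlap. It stood at 10.4 to 68.5 CPM on the E7.5 plates (median 19.7) and at 35.5, 30.9 and 82.9 CPM on E8.5 plates 4, 7 and 8, against 2.07 CPM in other cells. At E7.5 *Fendrr* reached 20 CPM in 45.9% of members with *Foxf1* at threshold (61 cells) and in 7 of 48 without (14.6%). The 48 include the 18 extraembryonic ectoderm-marked members, 0 of which reached 20 CPM of *Fendrr*, and without them it was 7 of 30 (23.3%). At E8.5 it did so in 33 of 59 (55.9%) and 7 of 10 (70%), so the order at E7.5 was not seen at E8.5, where 10 cells lacked *Foxf1*.

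Of 22 genes of the BMP pathway other than the rule gene *Bmp4*, 19 reached 10 CPM, 8 were higher and 0 lower in members, with a median log2 ratio of 0.89 against 0.03 over all genes. The ligand genes *Bmp5* (log2 ratio 2.25) and *Bmp7* (1.23) were higher, while *Bmp2* was not called (0.95). *Bmp5* stood at 45.5 CPM in members, 8.77 CPM in the other cells and 0.813 CPM in endothelial-marked cells. It reached 20 CPM in 57.1% of unmarked E7.5 members and in 15.2% of nascent mesoderm-marked other cells. For *Bmp7* these shares were 66.7% and 64.9%. Its level in nascent mesoderm-marked other cells, 68.2 CPM, was above that in unmarked E7.5 members. That level lay within the range of the members' plates (22.4 to 81.1 CPM), so *Bmp7* does not set members apart from these cells. Among the targets, the homeobox genes *Msx2* (3.01) and *Msx1* (2.25) and the inhibitory SMAD genes *Smad6* (1.93) and *Smad7* (1.22) were higher. *Msx1* stood at 118.3 to 415.7 CPM on the E7.5 plates and at 223.4, 265.6 and 320.3 CPM on E8.5 plates 4, 7 and 8. In nascent mesoderm-marked other cells it stood at 111.6 CPM. The inhibitors of DNA binding *Id1*, *Id2* and *Id3* were not called, at log2 ratios of 0.59, 0.56 and 0.73. *Id2* moved with the extraembryonic ectoderm-marked members, in which it stood at 1928 CPM against 122.7 CPM in unmarked E7.5 members, and its ratio without them was -0.05. The pseudoreceptor gene *Bambi* (1.81) and the receptor gene *Acvr2a* (1.24) were higher, and the transducer genes *Smad1*, *Smad4* and *Smad5* were not called.

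Of the Hedgehog pathway, the ligand genes *Ihh* and *Shh* did not reach 10 CPM in members or other cells, and 4 of the 6 genes at that level other than the rule gene *Foxf1* were higher in members. These were the receptor gene *Ptch1* (1.61), the decoy receptor gene *Hhip* (2.38) and the transcription factor genes *Gli2* (1.58) and *Gli3* (1.31). *Ptch1*, itself a target of the pathway, stood at 113.5 to 275.3 CPM on the E7.5 plates and at 114.2, 105.7 and 199.8 CPM on the E8.5 plates, against 53.3 CPM in other cells.

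Of 11 Wnt pathway genes with 10 CPM, 7 were higher and 0 lower. *Wnt5a*, a noncanonical ligand, stood at 205.9 CPM in members, 37.4 CPM in other cells and 2.83 CPM in endothelial-marked cells. In nascent mesoderm-marked other cells it stood at 110.7 CPM. *Wnt2*, known from the allantois, stood at 12.2 to 80.7 CPM on the E7.5 plates and at 30.03, 375.2 and 91.5 CPM on the E8.5 plates, with plate 7 above the rest. In nascent mesoderm-marked other cells *Wnt2* stood at 52.7 CPM, against 51.4 CPM in unmarked E7.5 members. *Axin2* and *Lef1*, both read as targets of canonical Wnt signalling, had log2 ratios of 1.10 and 1.05. Both were lower in unmarked E7.5 members (28.3 and 47.3 CPM) than in nascent mesoderm-marked other cells (42.5 and 112.7 CPM). In the FGF-ERK list 3 of 11 genes were higher, the receptor gene *Fgfr2* (1.44) and the ligand genes *Fgf3* (1.27) and *Fgf10* (1.39), and 1 was lower, the ERK phosphatase gene *Dusp6* (-1.30). Over all genes, 4.98% were higher and 7.27% lower. *Fgf10* stood at 77.99 CPM in unmarked E7.5 members and 118.1 CPM in nascent mesoderm-marked other cells. The same values were 178.5 and 95.3 CPM for *Fgf3* and 87.6 and 10.9 CPM for *Fgfr2*.

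Leaving out the rule gene *Tbx4*, 5 of the 5 genes of the allantois list at 10 CPM (*Hoxa10*, *Wnt2*, *Vcam1*, *Cdx2* and *Cdx4*) were higher in members, as were 7 of the 8 Hox genes at that level. *Cdx2*, a caudal homeobox gene, stood at 63.2 to 227.4 CPM on the E7.5 plates and at 145.7, 146.7 and 229.7 CPM on E8.5 plates 4, 7 and 8, so that plates 4 and 7 lay within the E7.5 range and plate 8 just above it. *Hoxd1* was higher than in other cells on all 13 plates (log2 ratio 2.20). *Vcam1*, an adhesion molecule, stood at 7.13, 0 and 78.03 CPM on the E8.5 plates and reached 20 CPM in 5 members at E7.5 and 8 at E8.5.

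In the mesenchyme list 7 of 9 genes were higher and 0 lower, and in the matrix list 8 of 15 were higher and 1 lower. The mesenchymal cadherin gene *Cdh11* stood at 78.6 to 316.5 CPM on the E7.5 plates and at 83.8, 57.8 and 145.4 CPM on the E8.5 plates. It stood at 35.3 CPM in other cells and 4.15 CPM in endothelial-marked cells. In nascent mesoderm-marked other cells it stood at 134.6 CPM, within the range of the members' plates. The lower matrix gene was *Hapln1*, which encodes a hyaluronan link protein, at 51.99 CPM in members, 304.9 CPM in other cells and 967.4 CPM in endothelial-marked cells. In nascent mesoderm-marked other cells it stood at 0.362 CPM, below members. *Lum* and *Postn*, matrix genes with large ratios (5.69 and 5.91), reached 20 CPM in 25 and 31 members in all.

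The 5 epithelial genes split: the keratin genes *Krt8* (1.89) and *Krt18* (1.55) were higher, and *Cdh1*, *Epcam* and *Cldn6* were lower. Vascular genes split as well. *Kdr* was not called, at 361.8 CPM in members and 312.9 CPM in other cells. Its coreceptor gene *Nrp1* was higher (1.53), while the blood and endothelial factors *Tal1*, *Lmo2* and *Fli1* and the receptor gene *Flt1* were lower (-3.17, -2.91, -3.18 and -2.96). The rule puts all endothelial-marked cells among the other cells, so these lower ratios are in part set by the choice. *Tal1*, *Lmo2* and *Fli1* stood at 10.985, 11.3 and 8.99 CPM in unmarked E7.5 members. In nascent mesoderm-marked other cells they stood lower, at 0.469, 4.06 and 3.14 CPM. *Flt1* went the other way, at 18.9 and 72.98 CPM. *Kdr* varied by plate at E8.5, at 733.7, 5.86 and 15.8 CPM on plates 4, 7 and 8, and which plates were sorted on KDR is not in the labels. *Etv2*, a driver of haemato-endothelial fate, reached 20 CPM in 42.03% of E7.5 members with *Kdr* (58 cells) and 3 of 43 without, and in 20 of 41 and 2 of 28 at E8.5.

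Of 9 imprinted genes, 6 were higher and 0 lower, with a median log2 ratio of 1.47. *Phlda2*, a maternally expressed restrainer of placental growth, stood at 647.99 to 3866 CPM on the E7.5 plates and at 1234, 368.5 and 691.4 CPM on the E8.5 plates. It stood at 245.3 CPM in other cells and 24.2 CPM in endothelial-marked cells. In nascent mesoderm-marked other cells it stood at 679.9 CPM, within the range of the members' plates. The paternally expressed *Peg3* (log2 ratio 1.77), *Peg10* (2.22) and *Dlk1* (2.34) were higher on all 13 plates. Of 8 DNA methylation enzyme genes with 10 CPM, 1 was called: *Dnmt3b*, a de novo methyltransferase gene, was lower in members, at 220.4 against 576.9 CPM. Cell cycle genes gave 0 calls among 6, with *Mki67* at 255.9 and 287.8 CPM. Over all genes 4.98% were higher and 7.27% lower, so nothing is read from these 2 counts about the enzyme and cell cycle lists. The targeted genes *Tet1*, *Tet2* and *Tet3*, which encode oxidases of methylated cytosine, stood at 85.1, 27.1 and 33.3 CPM in members and at 59.6, 24.7 and 41.9 CPM in other cells, and were not called. Host and TKO cells cannot be told apart in these values, so they do not check the knockout.

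Of 4 GATA factor genes with 10 CPM, 3 were higher in members and 0 lower. *Gata6* (log2 ratio 1.23) and *Gata4* (1.69) encode factors shared by mesoderm and primitive endoderm. *Gata6* stood at 28.6 CPM in unmarked E7.5 members and 50.6 CPM in nascent mesoderm-marked other cells. For *Gata4* these values were 69.6 and 53.6 CPM. *Gata3*, also a trophoblast gene, had a log2 ratio of 1.17, and of 1.09 without the extraembryonic ectoderm-marked members, in which it stood at 95.9 CPM against 43.1 CPM in unmarked E7.5 members. Contractile genes were higher in 4 of 4 cases, with *Acta2* at 258.2 against 33.4 CPM. Of 6 retinoid genes, 0 were higher and 2 lower, the retinol carrier gene *Rbp4* (-5.11) and the retinoic acid-binding protein gene *Crabp2* (-1.63). In unmarked E7.5 members these 2 stood at 4.24 and 17.3 CPM, and in nascent mesoderm-marked other cells at 5.14 and 17.2 CPM. Of 3 T-box genes outside the rule, 1 was higher, *Tbx3*.

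E8.5 members were next set against E7.5 members. A gene was called where its summed level differed at least 2-fold, reached 10 CPM at either stage, and did not overlap between the 3 E8.5 plates and the 10 E7.5 plates with at least 5 members. Of 9713 genes, 2.22% were higher and 2.24% lower at E8.5, and the median log2 ratio was 0.09. These shares are the background for each count of a gene list between the stages below. Leaving out 1 E8.5 plate leaves fewer plates to overlap and gave 4.22% higher and 3.86% lower without plate 4, 4.37% higher and 3.04% lower without plate 7 and 3.55% higher and 3.54% lower without plate 8. Lane plate 3 gave 54833485 of the 169225445 reads of E7.5 members, and plate 8 gave 30041065 of the 53117315 reads at E8.5. The median mitochondrial share of reads was 1.87% in E7.5 members and 1.15% in E8.5 members, and its part in these differences was not tested.

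Of 4 genes of the nascent mesoderm list at 10 CPM, 3 were lower at E8.5 (*Eomes*, *Mixl1* and *Mesp1*) and 0 higher. The streak gene *T* (brachyury) was not called, at 9.54 to 168.6 CPM on the E7.5 plates and 1.20, 0 and 37.05 CPM on E8.5 plates 4, 7 and 8, which overlapped (log2 ratio -1.62). *Eomes*, a T-box factor of the early streak, stood at 2.08 to 172.6 CPM on the E7.5 plates (103.4 CPM in all) and had 0 reads in the 69 E8.5 members. Against the floor of 3 reads over the group (0.0565 CPM), it was at least 1831-fold lower at E8.5. *Eomes* also stood at 142.6 CPM in the extraembryonic ectoderm-marked members, which are all at E7.5. *Tdgf1*, outside that list, stood at 3.20 to 451.5 CPM on the E7.5 plates and had 1 read in all E8.5 members. The homeobox gene *Mixl1* stood at 37.8 to 581.9 CPM on the E7.5 plates and at 1.36, 3.45 and 15.5 CPM on E8.5 plates 4, 7 and 8 (log2 ratio -4.58). *Mesp1*, a factor of nascent mesoderm, stood at 57.8 to 218.5 CPM and at 1.76, 0 and 50.4 CPM (-1.96). *Eomes*, *Tdgf1*, *Mixl1* and *Mesp1* move with the nascent mesoderm-marked subset, of which 1 cell was found at E8.5, and the part of that subset in these differences was not tested. Among members marked for no other class, a set chosen in part on low *Eomes*, *Mixl1* and *Mesp1*, the log2 ratio of *Tdgf1* was -4.24 and that of *Mixl1* -2.72. In that set *Eomes* stood at 20.8 CPM at E7.5 and had 0 reads at E8.5, at least 310.03-fold lower against the floor of 3 reads (0.0671 CPM).

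Genes outside the nascent mesoderm list were also lower, several of them with a higher level in that subset. *Vrtn* stood at 255.9 CPM in nascent mesoderm-marked and 75.3 CPM in unmarked E7.5 members, *Fgf10* at 216.5 and 77.99 CPM, and *L1cam* at 70.8 and 32.8 CPM. By plate, *Vrtn* stood at 45.9 to 252.3 CPM on the E7.5 plates and at 2.32, 9.14 and 3.63 CPM on the E8.5 plates (log2 ratio -5.04, and -3.93 among unmarked members). *L1cam*, a cell adhesion gene, stood at 11.5 to 59 CPM and at 0, 0 and 1.997 CPM (-4.53, and -4.59 among unmarked members). In the FGF-ERK list 3 of 11 genes were lower and 0 higher, the ligand genes *Fgf3* and *Fgf10* and the feedback inhibitor gene *Spry2*. *Fgf3* stood at 48.3 to 280.9 CPM at E7.5 and at 30.6, 11.2 and 32.3 CPM at E8.5 (-2.67, and -3.46 among unmarked members). *Fgf10* stood at 37.99 to 200.8 CPM and at 11.2, 13.8 and 21.7 CPM (-2.93, and -2.15 among unmarked members). For *Spry2* the plates held 39.95 to 82.9 CPM at E7.5 and 12.8, 0.345 and 8.19 CPM at E8.5 (-2.90, and -3.11 among unmarked members), with plate 7 the lowest. *Tbx3*, one of the genes that set members apart, stood at 102.6, 38.6 and 73.3 CPM on the E8.5 plates, below its whole E7.5 range (-1.96, and -1.79 among unmarked members).

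The fibulin genes parted. *Fbln2* stood at 58.02 to 111.4 CPM at E7.5 and at 6.33, 0 and 13.4 CPM at E8.5 (-3.25). *Fbln1* was higher, at 107.4 to 295.6 CPM and 320.7, 296.9 and 422.6 CPM (1.05), with its highest E7.5 plate just under the lowest E8.5 plate, and its log2 ratio fell to 0.97, short of a call, without the extraembryonic ectoderm-marked members. *Dnmt3b* was the methylation enzyme gene called among 8, at 106.2 to 707.9 CPM at E7.5 and 51.3, 40.5 and 86.7 CPM at E8.5 (-1.80). It stood at 1016.8 CPM in the extraembryonic ectoderm-marked members against 180.9 CPM in unmarked E7.5 members, and its highest plates were embryos 4 and 5, which hold most of those cells. Its log2 ratio was -1.52 without them.

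Contractile and mesenchymal genes were higher at E8.5. *Acta2* stood at 4.09 to 385.2 CPM on the E7.5 plates (median 18.6) and at 392.9, 561.96 and 1284 CPM on E8.5 plates 4, 7 and 8 (log2 ratio 3.97, and 3.16 among unmarked members). Its highest E7.5 plate lay just below plate 4, so the groups did not overlap but nearly met. It reached 20 CPM in 18.2% of E7.5 and 66.7% of E8.5 members. The tropomyosin genes *Tpm1* (1.09, and 0.72 among unmarked members) and *Tpm2* (1.55) were also higher, making 3 of 5 contractile genes, while *Myl9* (2.61) overlapped between plates.

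In the mesenchyme list 4 of 10 genes were higher and 0 lower. *Snai2* stood at 0.827 to 28.4 CPM at E7.5 and at 48.3, 37.6 and 165.01 CPM on the E8.5 plates (3.10). The paired-related homeobox gene *Prrx2* stood at 0.142 to 13.8 CPM and at 104.03, 88.5 and 43.1 CPM (2.55), and was highest on plate 4. The values of *Vim* were 81.95 to 282.3 CPM and 597.8, 603.5 and 537.5 CPM (1.59), and *Twist2* was higher as well (2.19). *Pitx1*, a homeobox gene known from the hindlimb field, stood at 0 to 39.3 CPM at E7.5 and at 161.1, 172.4 and 128.5 CPM at E8.5 (3.77), in 20 and 50 members. These genes stood lower in nascent mesoderm-marked than in unmarked E7.5 members. The values were 1.66 and 22.1 CPM for *Snai2*, 5.67 and 14.6 CPM for *Prrx2*, and 155.9 and 238.2 CPM for *Vim*. *Twist2* stood at 0.638 and 6.415 CPM and *Pitx1* at 0.828 and 17.8 CPM. The part of that subset in these differences was not tested.

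Of 9 imprinted genes, 2 were higher at E8.5 and 0 lower, against 2.22% and 2.24% over all genes. *Cdkn1c*, a cell cycle inhibitor, stood at 6.98 to 58.8 CPM on the E7.5 plates and at 385.4, 149.7 and 278.1 CPM on the E8.5 plates (3.36). *Igf2*, a growth factor gene, stood at 2.08 to 13.5 CPM and at 28.4, 27.8 and 51.3 CPM (2.25). In nascent mesoderm-marked E7.5 members *Cdkn1c* stood at 12.5 CPM and *Igf2* at 2.56 CPM, against 41.1 and 12.6 CPM in unmarked ones. The part of that subset in these 2 differences was not tested. *Mest* (1.97), *Dlk1* (2.35) and *H19* (1.54) had overlapping plates and were not called.

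All 17 Hox genes that reached 10 CPM at either stage had a higher summed level at E8.5, with a median log2 ratio of 2.21 against 0.09 over all genes. The 3 called were *Hoxc10* (2.997), *Hoxb7* (2.41) and *Hoxd9* (1.80). *Hoxd9* stood at 1.84 to 13.4 CPM at E7.5 and at 29.4, 16.04 and 22.1 CPM at E8.5. *Tbx4* was at threshold in 39.1% of E8.5 and 7.18% of E7.5 members. At E7.5 *Hoxc10* stood at 5.76 CPM with *Tbx4* and 0.0128 CPM without. *Hoxb7* stood at 18.3 and 2.49 CPM and *Hoxd9* at 28.2 and 4.10 CPM in the same order. In nascent mesoderm-marked E7.5 members the 3 stood at 0.0271, 1.97 and 5.998 CPM, and in unmarked ones at 0.869, 5.68 and 6.64 CPM. The part of these subsets in the stage differences was not tested. Between the stages 0 of 20 BMP genes and 0 of 8 Hedgehog genes were called, from which nothing is read beside the low share called over all genes.

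Muscle genes at E8.5 rested on few cells. *Myl4*, an atrial light chain gene, stood at 23.3, 349.7 and 34.4 CPM on plates 4, 7 and 8 and reached 20 CPM in 7 of 69 members. Its log2 ratio of 3.82 became -0.15 among members marked for no other class. *Ttn*, the giant sarcomere protein titin (3.83), reached 20 CPM in 4 members, and 3 E8.5 members were marked for the cardiac class.

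**Figure D4:**
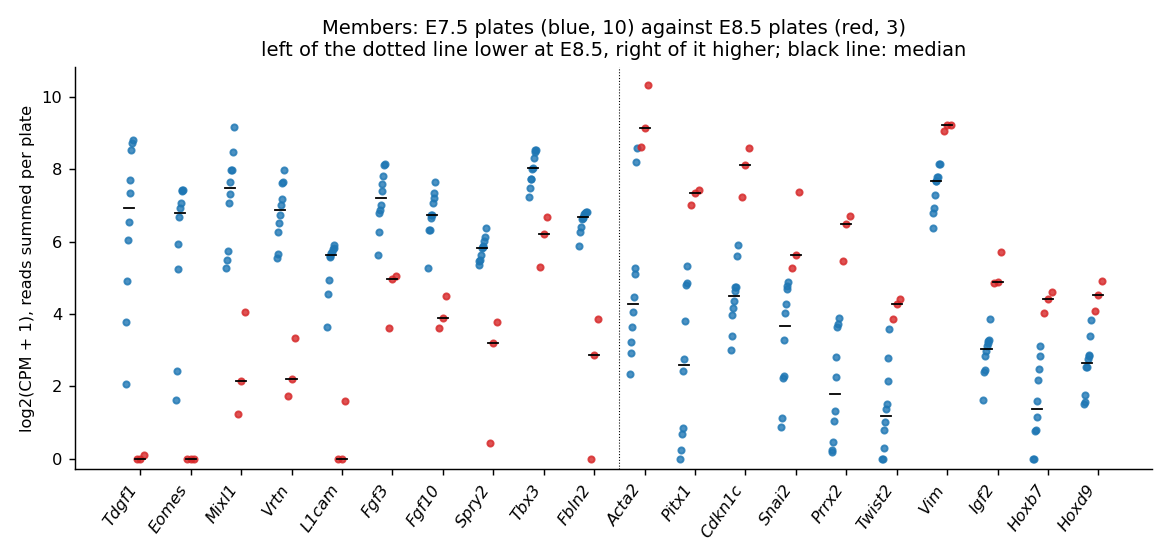
Levels as log2(CPM + 1) of the summed reads of members on each E7.5 plate (blue, 10) and E8.5 plate (red, 3), with medians as black lines. The 10 genes left of the dotted line are lower on all 3 E8.5 plates than on any of the 10 E7.5 plates, and the 10 right of it are higher, *Acta2* by a narrow margin.

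Members at E8.5 were then split by *Tbx4*. The 27 E8.5 members with *Tbx4* at 20 CPM came from plate 4 (16), plate 8 (6), plate 7 (3) and plate 3 (2), and the 42 without it mainly from plate 8 (24) and plate 4 (8). Genes were called at a 2-fold difference of summed levels, 10 CPM on either side, and the same direction within plates 4 and 8, which hold at least 5 cells on both sides. Of 9707 genes, 5.55% were higher and 6.55% lower with *Tbx4*. With 1 plate fewer to satisfy, 11.6% higher and 13.7% lower were called without plate 4 and 10.5% higher and 8.84% lower without plate 8. *Tbx4* is a rule gene, so members without it had to carry 3 of the other 4, and these values are a description.

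Hox genes of several groups differed with *Tbx4*, and 11 of 23 were higher and 3 lower. The higher were *Hoxa7*, *Hoxa9*, *Hoxa10*, *Hoxa11*, *Hoxa13*, *Hoxc6*, *Hoxc10*, *Hoxd1*, *Hoxd4*, *Hoxd8* and *Hoxd10*, while *Hoxb9*, *Hoxc9* and *Hoxd9* were among those not called. Of the other 8 allantois genes, 5 were higher with *Tbx4*: *Hoxa10*, *Hoxa11*, *Hoxa13*, *Tbx2* and *Cdx4*, the last of which reversed without plate 8 (log2 ratio -0.72). *Hoxa10* reached 20 CPM in 19 of 27 cells with *Tbx4* and 8 of 42 without (99.4 against 11.9 CPM). *Hoxa11* did so in 14 and 2 cells, *Hoxa13* in 10 and 2, and *Hoxa9* in 22 and 9. *Hoxa11os*, which overlaps *Hoxa11* on the opposite strand, did so in 13 and 0, and since no strand setting is stated for the counting, the reads of the pair cannot be told apart. The lower Hox genes were *Hoxb1* (0 and 11 cells), *Hoxb2* (1 and 11) and *Hoxc8* (9 and 19). E7.5 members were not used for these calls. There *Hoxa10* reached 20 CPM in 13 of 13 members with *Tbx4* and in 6 members (3.57%) without, and *Hoxa9* in 9 and 4.

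Other genes higher with *Tbx4* were of mixed kind. The homeobox gene *Prrx1* reached 20 CPM in 22 of 27 cells with and 13 of 42 without *Tbx4*, and the neurotrophin receptor gene *Ngfr* in 12 and 1. The haemato-endothelial factor genes *Etv2* (14 and 8 cells) and *Fli1* (12 and 4) and the hyaluronan synthase gene *Has2* (11 and 5) were also higher. The *Etv2* log2 ratio was 2.34 over all plates, 0.57 within plate 4 and 1.77 within plate 8. For *Fli1* these values were 1.51, 1.08 and 1.24, and for *Has2* 1.22, 0.93 and 0.97. *Cdkn1c* stood at 649.5 against 96.4 CPM and *Phlda2* at 1552 against 381.9 CPM. *Kdr* stood at 460.6 against 155.4 CPM but was not called, with a log2 ratio of -0.26 within plate 4 and 0.42 within plate 8.

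Of 15 matrix genes 3 were higher with *Tbx4* and 3 lower, with a median log2 ratio of -0.01. Beside *Has2*, the higher were *Col1a1* and the basement membrane collagen gene *Col4a1*. *Col1a1* stood at 441.1 against 78.1 CPM and reached 20 CPM in 15 of 27 and 21 of 42 cells. *Col4a1* stood at 162.01 against 77.1 CPM and did so in 19 and 28 cells. The shares of cells with either gene thus differed little. Their log2 ratios were 0.75 and 0.15 within plate 4, and 3.84 and 1.39 within plate 8. *Fbln2*, outside the list, was higher too (26.6 against 0.428 CPM, 3 and 1 cells). *Lum*, also outside it, which encodes the small proteoglycan lumican, reached 20 CPM in 1 of 27 cells with and 19 of 42 without *Tbx4* (1.44 against 592.9 CPM). The lower matrix genes were *Col3a1* (type III collagen), at 20 CPM in 7 and 25, *Hapln1* in 12 and 30, and *Tnc* (tenascin) in 1 and 9. Of 8 Hedgehog genes 3 were lower and 0 higher. *Hhip* (0 and 9 cells), *Gli1* (2 and 10) and *Ptch1* (66.1 against 218.9 CPM) were those lower. *Bmp5* (3 and 21 cells) and *Krt18* (237.5 against 1016.9 CPM) were lower too. So were the muscle genes *Myl7* (1 and 7 cells) and *Smyd1* (1 and 13). The rule gene *Hand1* also had a lower level (148.99 against 467.5 CPM). Members without *Tbx4* had to carry 3 of the remaining rule genes and those with it at least 2, so nothing is read from this level.

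*Lum* was found together with other matrix genes. Of the 20 E8.5 members with *Lum*, 17 had *Postn* (periostin), 18 had *Col3a1* and 13 had *Dcn* (decorin), against 6, 14 and 0 of the 49 without. At E7.5, *Lum* was seen in 5 members, of which 5 had *Postn*, 4 *Col3a1* and 3 *Dcn*, against 3, 5 and 0 of the rest. *Lum* stood at 3.04, 18.1 and 674.7 CPM on E8.5 plates 4, 7 and 8, so its reads at E8.5 came largely from plate 8. *Dcn* is outside the gene lists and was chosen after its values were seen.

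**Figure D5:**
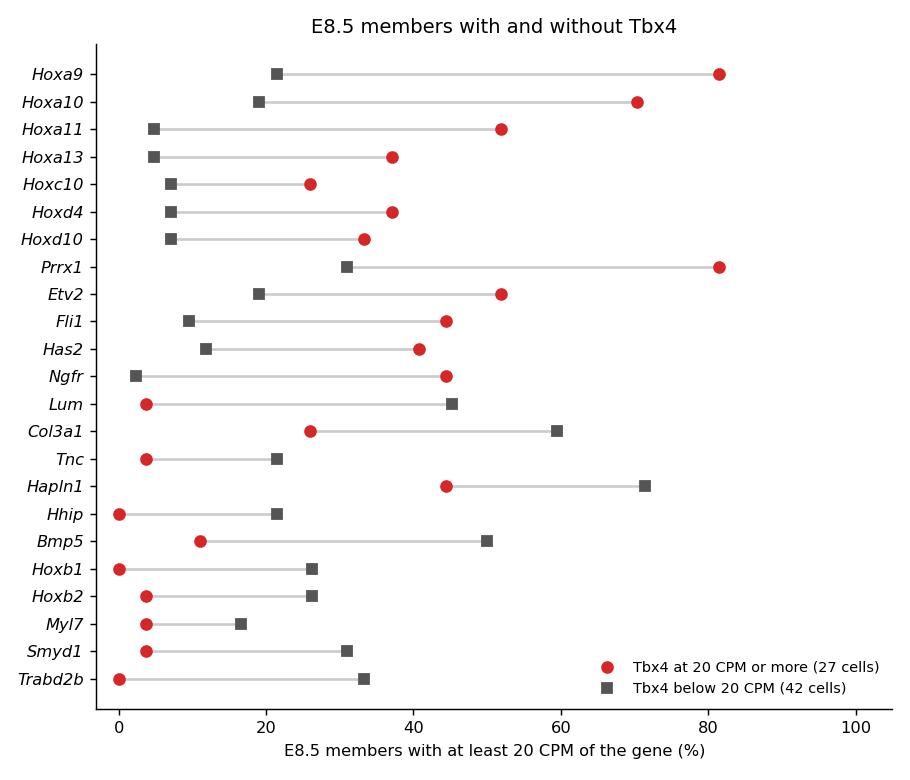
Percent of E8.5 members with at least 20 CPM of each gene, for 27 cells with *Tbx4* at 20 CPM or more (red circles) and 42 cells below it (grey squares). *Hoxa9* to *Hoxa13*, *Prrx1* and *Ngfr* are more frequent with *Tbx4*, whereas *Lum*, *Hapln1*, *Hhip*, *Hoxb1* and *Trabd2b* are more frequent without it.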

How the data were processed

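RNA-seq of single cells (Smart-seq2, without molecular identifiers) was deposited by the authors as raw read counts per gene and cell. Per the submitters' processing notes reads were aligned to GRCm38 with HISAT2 2.1.0 and counted with featureCounts; handling of strand and of multimapping reads is not given in the sources used here. Of 55487 gene IDs, 55141 were matched to a symbol in a gene name table, and coordinates came from GENCODE M21 (GRCm38). Counts were scaled to CPM of each cell's total, cells under 100000 reads were left out, and reads of members were summed per plate and stage in Python 3.11.15 with scipy 1.17.1. Log2 ratios used a pseudocount of 1 CPM. The ratio and overlap rule was run on simulated counts with planted changes, as a check of the code. The simulated plates had the same spread for all genes and no mixture of cell classes, so no error rate for these data follows. TMM (edgeR 4.0.16) and size factors (DESeq2 1.42.0) were alternatives. Doublets were not called; as an alternative the deepest 2% of each plate's cells were left out. The columns without a sample numbered 0.

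The text names genes of fixed lists, and for each comparison the most extreme genes by ratio (at most 15 higher, 10 lower) of those moving one way on every plate with at least 5 cells on both sides. Predicted genes, Rik, mitochondrial and ribosomal protein genes were excluded from the latter. Members and lists were chosen with earlier results of these data known. No comparison was tested, since they use genes that chose the cells, or stages of which 1 names no animal; Dixon's criterion was used to pick out single plates. Summed counts ranged from 1921622 to 54833485 reads per plate of members.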

Additional observations from a re-analysis of the deposited data

Results flagged for a closer look

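In the 4 plates that name an embryo, 42 measures of the members were examined for a plate far from the others, by the gap to its neighbour over the whole range (Dixon's criterion at the 95% level). Chance alone flags about 1 in 20, and 4 were found. *Cdx4* stood at 68.5 CPM in the members of embryo 2, against 18.3, 17.1 and 10.1 CPM in embryos 1, 4 and 5. *Gata3* stood at 66.5 CPM in embryo 5, against 49.5, 49.03 and 51.7 CPM in the other three. The remaining 2 rest on 1 cell each of the 22 members of embryo 1 (4.55%), marked for cardiac mesoderm in one case and for primordial germ cells in the other, with 0 in the other embryos.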

How the results depend on the processing

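No paired analysis was possible because the result comes from no test; members and other cells of the same 13 plates were compared within plates as values only. The share of cells that were members stayed within 1.5 times its value under the other read, threshold, quality and thinning limits, and became 8.37% of cells (10.04% at E7.5, 6.06% at E8.5) with 4 of 5 genes required. Against other cells, genes higher and lower came to 2.03% and 3.49% with no minimum on CPM, lower genes to 3.94% at 50 CPM, and higher genes to 3.001% with other cells only from plates with at least 5 members. Between stages, higher and lower genes came to 0.845% and 0.852% with no minimum and 5.47% and 4.25% with plates of at least 10 members, which leaves fewer plates to overlap, and lower genes to 1.48% among members marked for no other class. In the *Tbx4* split, mean CPM over cells gave 3.68% higher. The cause was not tested except where named.

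Leaving out 1 plate at a time gave 4.88 to 5.45% higher and 7.13 to 7.80% lower against other cells, 2.23 to 4.37% higher and 2.102 to 3.86% lower between stages, and 6.17 to 11.6% higher and 7.94 to 13.7% lower in the *Tbx4* split, where it was chosen after seeing the data. *Tnnt2*, at a log2 ratio of 1.002 against other cells, turned to -0.60 with mean CPM and -0.49 among unmarked members, and *Myl4* between stages to -0.15 among unmarked members. Leaving out 1 E8.5 plate, the *Tbx4* log2 ratios ranged from -0.24 to 4.06 for *Ankrd44*, -0.72 to 2.18 for *Cdx4*, -0.57 to 1.67 for *Clgn*, -1.81 to 0.78 for *Epcam*, -2.81 to 0.18 for *Mixl1* and -0.30 to 1.89 for *Tet2*, reversing in each case without plate 8. TMM, DESeq2 size factors and haemoglobin-free library sizes reversed none of the named genes that were called against other cells, between stages or in the *Tbx4* split, where these scalings were also chosen after seeing the data. Summed reads weight deep cells and plates more.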
